A study of Homo sapiens with 6 samples.

Results

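A stretch of neighbouring genes on chromosome 3, from SLCO2A1 to TRPC1, was followed in the human cell line MDA-MB-231, derived from a breast cancer. The 43 genes were named one by one from that stretch, and all 43 were found on the array, by 105 probe sets, among 19775 genes measured in all. They were chosen by position and selected on the log2 differences between the groups of these same arrays, so the differences below describe the choice and are no evidence for it. The stretch was named for a coordinated rise, a name that these differences cannot test, and not every member rose. Of the 43 genes, 18 were called higher, where 11.5% of all genes were, and none lower, where 13% of all genes were. The other 25 were not called, and 10 of these lay below zero.

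Of 6 Affymetrix arrays, 3 came from cells transfected with a control vector and 3 from cells transfected with an HS3ST2 expression plasmid. HS3ST2 encodes a heparan sulfate 3-O-sulfotransferase. The design text calls the replicates of each group independent, without saying whether they were separate transfections, and the sources used here do not give the plasmid's promoter, the time of harvest or any selection or cloning of the cells. Each p-value thus reflects only the spread between these arrays, which may be technical.

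Every value is a log2 value relative to the median of its probe set over the 6 arrays. Such values show differences between arrays but no level, so it cannot be told which members lie near background, whether the usual markers of the cell line are present, or which of 2 genes is more abundant. In the arrays the HS3ST2 probe set read -0.22, 0.17 and -0.11 with the control vector and 0.16, 0.04 and -0.04 with the plasmid. The groups overlap, and whether the probe set matches the plasmid's transcript was not tested, so each direction rests on the labels, and "with HS3ST2" below means the arrays so labelled.

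Genes of a chromosomal neighbourhood are usually unrelated in function but lie in shared chromatin domains, within which the cell folds, replicates and packs its DNA together. The genes between SLCO2A1 and TRPC1 encode, among others, a catalytic subunit of phosphoinositide 3-kinase, a Ras-like GTPase, a cohesin subunit, proteins of the centrosome and the main cytoplasmic exonuclease of messenger RNA.

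The mean over the 43 members was -0.14, -0.09 and -0.10 with the control vector and 0.07, 0.11 and 0.11 with HS3ST2. All 3 HS3ST2-labelled arrays lay above all 3 control arrays, by 0.21 log2 between the group means, a 1.15-fold difference. The median over members was 0.19, against 0.01 over all 19775 genes. In single arrays, 10 or 11 of the 43 members lay above zero with the control vector, and 33, 30 and 36 with HS3ST2. Without SLCO2A1 the means over the other 42 members were -0.11, -0.06 and -0.09 with the control vector and 0.06, 0.09 and 0.09 with HS3ST2, closer together but still separate. Those 42 were selected on the same differences, so the separation follows in part from the choice and is no check of it.

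By limma over all genes, where a call means a p under 0.05 after Benjamini-Hochberg adjustment, 11.5% of all genes were called higher and 13% lower. Among the members, 18 of 43 (41.9%) were called higher. The groups did not overlap, with HS3ST2 above control, for 23 members, where 19.5% of all genes had that pattern, and the reverse held for PCCB alone, where 20.9% of all genes had it. The called members differed by 0.19 to 1.63 log2, with a median of 0.32, a 1.24-fold difference. For 10 of them (SLCO2A1, AMOTL2, PPP2R3A, STAG1, NCK1, MRAS, FAIM, PIK3CB, ATP1B3 and PLS1) the call was kept whichever array was left out. The other 8 lost it in at least 1 case, and the count of 18 fell to 10 without control replicate 2, to 11 without HS3ST2 replicate 2, to 12 without control replicate 3 or HS3ST2 replicate 1, and to 13 without HS3ST2 replicate 3. It was 17 without control replicate 1.

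**Figure D1:**
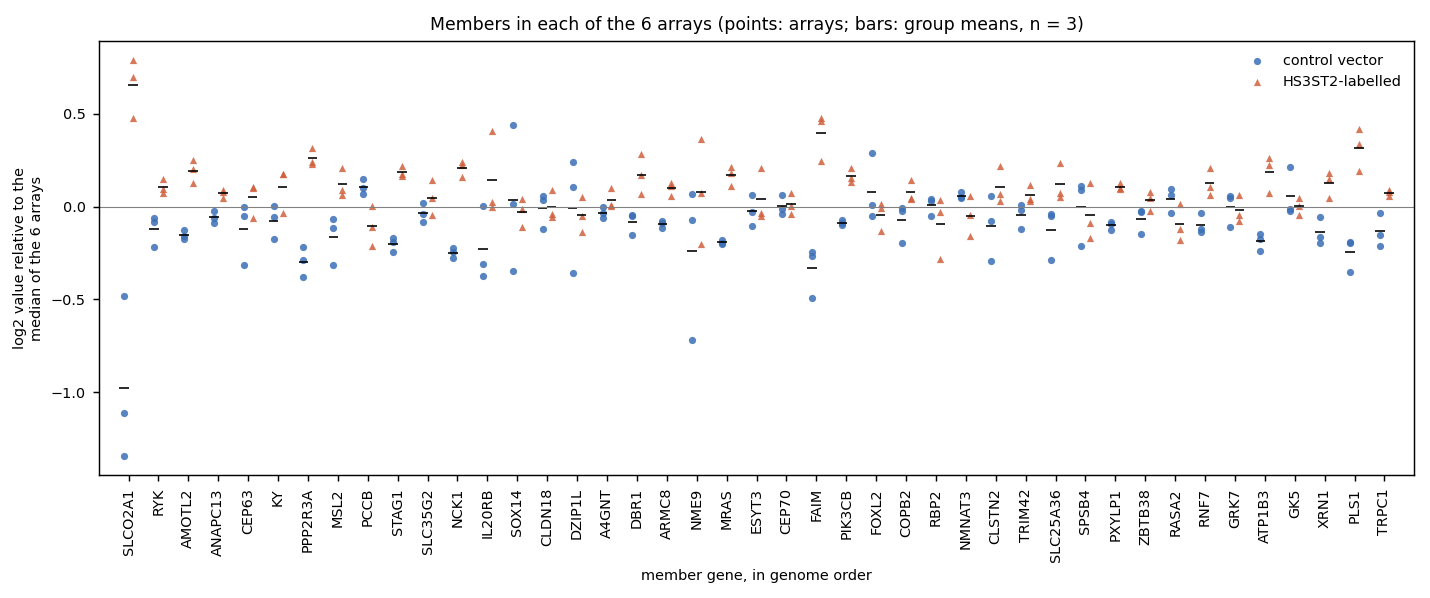
Each point is 1 array and each bar the mean of 3 arrays, on a log2 scale relative to the median of the 6 arrays, for the 43 members in genome order. SLCO2A1 has the widest separation, at -1.34 to -0.48 with the control vector and 0.48 to 0.79 with HS3ST2, and members such as SOX14, DZIP1L and SPSB4 have groups that overlap.

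Transporters, channels and trafficking genes included the first and the last gene of the stretch. SLCO2A1, the prostaglandin transporter, read -1.34, -1.11 and -0.48 with the control vector against 0.48, 0.70 and 0.79 with HS3ST2. It differed by 1.63 ± 0.20 log2 (SE, n = 3 per group, as in all differences that follow), 3.1-fold, and its control arrays were spread more widely than those of any other called member. ATP1B3, a beta subunit of the sodium and potassium pump, read -0.24, -0.18 and -0.15 against 0.07, 0.22 and 0.26, a difference of 0.37 ± 0.07. TRPC1, a cation channel subunit at the far end, read -0.03, -0.15 and -0.21 against 0.09, 0.08 and 0.06. Its groups were separate but close, with a difference of 0.21 ± 0.06, and its call was lost when any array but control replicate 1 was left out. The mitochondrial carrier gene SLC25A36 (0.25 ± 0.09) was not called as a gene, although 3 of its 5 probe sets were called higher at 0.29 to 0.33. COPB2, a coat protein of Golgi vesicles (0.15 ± 0.07), CLSTN2, a synaptic calsyntenin (0.21 ± 0.10), SLC35G2 (0.08 ± 0.06) and the lipid-binding protein gene ESYT3 (0.06 ± 0.08) were not called.

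Among receptors and signalling genes, 5 of 9 were called higher, where 11.5% of all genes were. PPP2R3A, a regulatory subunit of protein phosphatase 2A, read -0.29, -0.22 and -0.38 with the control vector against 0.24, 0.23 and 0.32 with HS3ST2. The difference was 0.56 ± 0.06, and its 3 probe sets gave 0.48 to 0.65, all called. NCK1, an adaptor that links receptor tyrosine kinases to actin, read -0.24, -0.28 and -0.22 against 0.16, 0.23 and 0.24, a difference of 0.46 ± 0.05 with all 4 probe sets called. These were the 2 members with several probe sets of which every probe set was called higher. MRAS, a GTPase of the Ras family, read -0.18, -0.19 and -0.20 against 0.11, 0.18 and 0.21 (0.36 ± 0.05). Of its 2 probe sets 1 was called, at 0.54, and the other gave 0.18.

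PIK3CB, which encodes the p110 beta catalytic subunit of phosphoinositide 3-kinase, differed by 0.25 ± 0.05, with 0.42 in 1 probe set and 0.08 in the other. RYK, a Wnt receptor with an inactive kinase domain, differed by 0.23 ± 0.06, a call held when control replicate 1 was left out and lost when any other array was. The interleukin receptor chain gene IL20RB gave 0.37 ± 0.13 and was not called. Its HS3ST2-labelled arrays read 0.03, -0.00476 and 0.41 and overlapped the control arrays, and it was called without control replicate 1 (0.49). RASA2, which switches Ras proteins off, gave -0.13 ± 0.07, with probe sets from -0.36 to 0.13. The cone opsin kinase gene GRK7 (-0.02 ± 0.07) and the ubiquitin ligase adaptor gene SPSB4 (-0.04 ± 0.11) were near zero.

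Of the genes of cell division and the centrosome, 2 of 6 were called higher, where 11.5% of all genes were. STAG1, a cohesin subunit, read -0.19, -0.17 and -0.24 with the control vector against 0.17, 0.22 and 0.17 with HS3ST2, a difference of 0.39 ± 0.05. Probe sets gave 0.54, 0.62 and -0.01, so 1 of the 3 lay near zero. RNF7, the RING subunit of cullin ligases, differed by 0.22 ± 0.06, with 4 probe sets from 0.17 to 0.27. ANAPC13, a small subunit of the anaphase-promoting complex, gave 0.13 ± 0.05 and CEP63, a centriole duplication factor, 0.17 ± 0.09. Neither was called. In the RefSeq table these 2 genes start head to head, with 33 bases between the nearest of their starts. CEP70 (0.01 ± 0.06), a centrosomal protein gene, and DZIP1L (-0.04 ± 0.14), a gene of the cilium base, were near zero.

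Of the genes for gene regulation and RNA turnover, 3 of 6 were called higher, where 11.5% of all genes were. MSL2, a ubiquitin ligase of the MSL chromatin complex, read -0.12, -0.31 and -0.06 with the control vector against 0.06, 0.09 and 0.21 with HS3ST2 (0.29 ± 0.08). XRN1, the exonuclease that degrades decapped messenger RNA, read -0.05, -0.17 and -0.19 against 0.18, 0.15 and 0.05 (0.26 ± 0.06). DBR1, which opens the lariats left by splicing, read -0.15, -0.05 and -0.05 against 0.07, 0.28 and 0.17 (0.26 ± 0.07). In all 3 genes the groups were separate, but the calls were lost in most cases when an array was left out. That of MSL2 was held without control replicate 3, that of DBR1 without HS3ST2 replicate 1, and that of XRN1 without control replicate 1 or HS3ST2 replicate 3. ZBTB38, a repressor that binds methylated DNA, gave 0.10 ± 0.06 over 5 probe sets, of which 1 was called at 0.31. The developmental factor genes SOX14 (-0.06 ± 0.17) and FOXL2 (-0.12 ± 0.09) were not called.

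Of the metabolic and glycan enzymes, 1 of 7 (14.3%) was called higher, near the 11.5% of all genes. That gene was PXYLP1, a phosphatase that removes phosphate from the xylose of the linker joining heparan sulfate to its core protein. It read -0.08, -0.13 and -0.09 with the control vector against 0.10, 0.13 and 0.10 with HS3ST2, tightly grouped, and differed by 0.21 ± 0.05. Its 2 probe sets gave 0.36 and 0.06, and leaving out control replicate 2 or HS3ST2 replicate 2 ended the call. PCCB, a subunit of propionyl-CoA carboxylase, was the member that lay farthest below zero, at 0.07, 0.15 and 0.10 with the control vector against 0.00, -0.11 and -0.21 with HS3ST2. The difference of -0.21 ± 0.07 was not called, but it was called with array weights (-0.22) and without HS3ST2 replicate 1 (-0.27). Its probe sets disagreed, with -0.52 in the one called lower and 0.09 in the other.

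The other metabolic members were not called. NME9, a nucleoside diphosphate kinase family gene, gave 0.32 ± 0.21, with control arrays at -0.72, 0.07 and -0.07. NMNAT3, an enzyme of NAD synthesis (-0.11 ± 0.06), RBP2, a retinol-binding protein of the intestine (-0.10 ± 0.09), and GK5, a glycerol kinase family gene (-0.06 ± 0.07), lay below zero. A4GNT, a gastric mucin glycosyltransferase, gave 0.07 ± 0.05.

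Of the cytoskeletal and junction genes, PLS1, an actin-bundling plastin, read -0.35, -0.20 and -0.19 with the control vector against 0.19, 0.42 and 0.34 with HS3ST2 (0.56 ± 0.08). AMOTL2, an angiomotin that binds YAP at junctions, read -0.18, -0.16 and -0.13 against 0.13, 0.20 and 0.25 (0.35 ± 0.05). Both have a single probe set, and in both the groups stood well apart. The muscle peptidase gene KY (0.18 ± 0.08) and the claudin gene CLDN18 (0.01 ± 0.07) were not called. FAIM, an inhibitor of Fas-induced apoptosis, had the largest difference after SLCO2A1. It read -0.26, -0.25 and -0.49 against 0.25, 0.46 and 0.47, a difference of 0.73 ± 0.09, 1.66-fold, from 1 probe set that ends in _s_at. ARMC8, a subunit of the CTLH ubiquitin ligase, differed by 0.19 ± 0.05, but its 6 probe sets ranged from -0.10 to 0.73 and 2 were called. The tripartite motif gene TRIM42 gave 0.11 ± 0.06 and was not called.

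Among probe sets, 7.9% of all 54613 were called higher and 8.98% lower, and 30 of the members' 105 were called higher and 1 lower. This count was 18 without control replicate 3 or HS3ST2 replicate 2 and 19 without HS3ST2 replicate 3. Of the 29 members with several probe sets, 2 had all called higher, 12 had some and 14 had none called in either direction. PCCB was the remaining one. DBR1 and TRPC1 were called as genes although none of their probe sets was, and so was MSL2, whose only probe set missed the threshold when adjusted over all probe sets. In 12 of the 29 the probe sets lay on both sides of zero. SLC25A36, ZBTB38 and TRIM42 were not called as genes but held a called probe set. Averaging probe sets therefore gave smaller differences for STAG1, ARMC8 and MRAS than their highest probe sets, and which probe sets measure the main transcript cannot be told from centred values.

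Members that were not called differed by a median of 0.06 log2. Their standard errors ran from 0.05 to 0.21, against 0.05 to 0.09 for the called members other than SLCO2A1. For 15 of these 25 the upper end of the 95% interval was above 0.2 log2, a size at which other members were called, so these 6 arrays leave room for a difference of that size. NME9 had the widest interval, from -0.17 to 0.81, while that of CEP70 ran from -0.12 to 0.14.

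In genome order the called members lay in 3 runs. Their limits were drawn after the values were seen, so many calls within them and none between them follow from the drawing. From SLCO2A1 to NCK1, 7 of 12 members were called higher, where 11.5% of all genes were, with a median difference of 0.26. From DBR1 to PIK3CB it was 5 of 8, with a median of 0.25, and from PXYLP1 to TRPC1 it was 6 of 10, with a median of 0.21. Between these runs lay IL20RB, SOX14, CLDN18, DZIP1L and A4GNT, with none of 5 called and a median of 0.01, and the 8 members from FOXL2 to SPSB4, with none called and a median of 0.03. Uncalled members also lay inside the runs, PCCB between MSL2 and STAG1 among them.

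The named members leave out 10 protein-coding genes that the RefSeq table places between SLCO2A1 and TRPC1, of which 4 were measured. TFDP2, a partner of E2F factors, was called higher as a gene (0.21 ± 0.05), but its probe sets ran from -0.39, called lower, to 0.64, called higher. Its call was lost without control replicate 2 or 3 and without HS3ST2 replicate 1 or 3. ATR, the replication stress kinase, gave 0.12 ± 0.05, EPHB1, an ephrin receptor, 0.01 ± 0.05, and MRPS22, a mitochondrial ribosomal protein that neighbours COPB2, -0.09 ± 0.05. With these 4, 19 of 47 genes measured in the stretch were called higher and the median was 0.18.

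**Figure D2:**
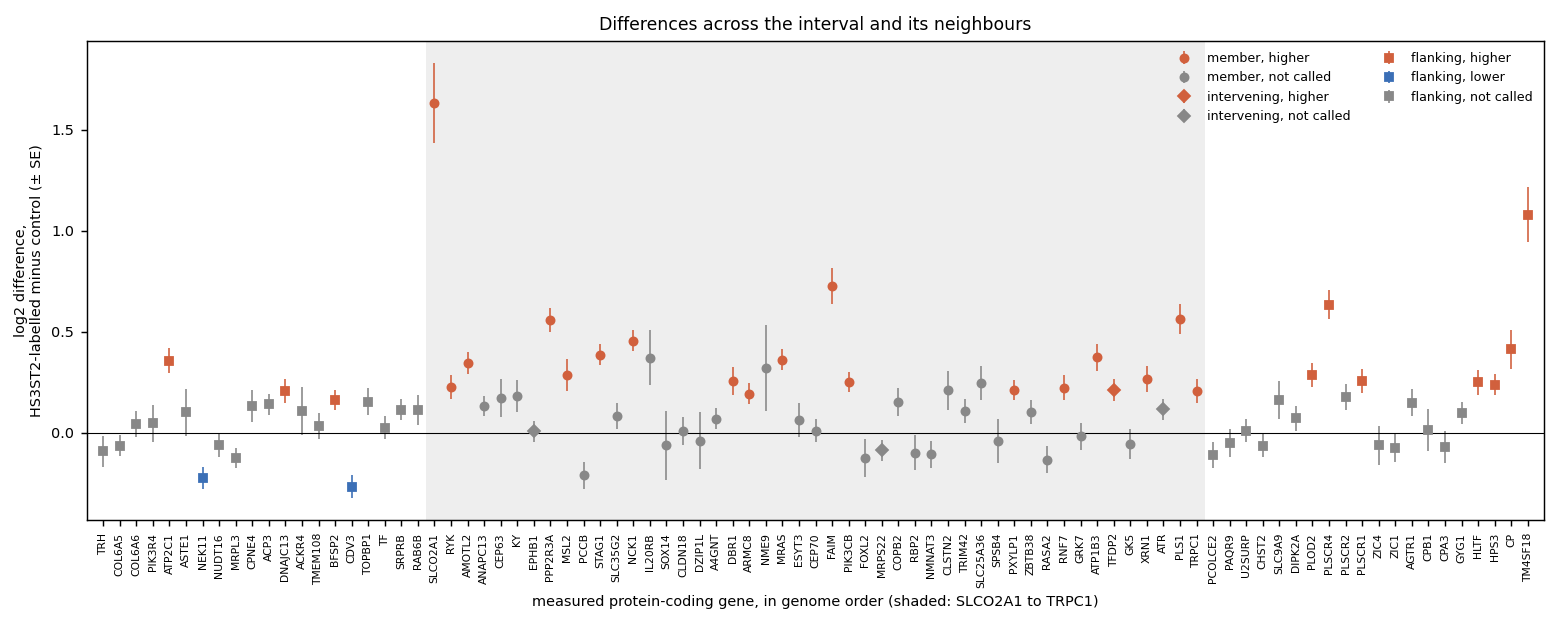
Points give the log2 difference (HS3ST2-labelled arrays minus control arrays) and bars its standard error, for 87 measured protein-coding genes in genome order, members as circles, intervening genes as diamonds and flanking genes as squares. The 5 genes next to SLCO2A1 on the near side and the 6 genes after TRPC1 hold no gene called higher, and genes called higher appear again from PLOD2 to TM4SF18. Both counts stop just before the next gene called higher, BFSP2 on the near side and PLOD2 past TRPC1.

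Next to SLCO2A1, outside the stretch, the nearest gene RAB6B gave 0.11 ± 0.07, SRPRB 0.11 ± 0.05, TF 0.02 ± 0.06, TOPBP1 0.15 ± 0.07 and CDV3 -0.27 ± 0.06, which was called lower. Of the 20 measured genes on that side, 3 (15%) were called higher and 2 (10%) lower, with a median of 0.07. Over all genes these shares were 11.5% and 13%. When 1 array was left out, 1 or 2 were called higher. The step from RAB6B (0.11) to SLCO2A1 (1.63) rests on 1 gene with 1 probe set, and the next member, RYK, was at 0.23. Members were selected on these same differences, so a step at this edge is no evidence of a boundary.

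Past TRPC1, the nearest genes PCOLCE2 (-0.11 ± 0.07), PAQR9 (-0.05 ± 0.07), U2SURP (0.01 ± 0.06), CHST2 (-0.06 ± 0.06), SLC9A9 (0.16 ± 0.09) and DIPK2A (0.07 ± 0.06) were not called. The cut after DIPK2A falls just before the first gene called higher on this side, so the lack of calls up to it follows from its place. Of the next 14, 7 were called higher and none lower, so the higher values did not end with the last member. They include PLOD2, a collagen lysyl hydroxylase (0.29 ± 0.06), the scramblase gene PLSCR4 (0.63 ± 0.07) and TM4SF18, a membrane protein gene, which read -0.58, -0.37 and -0.68 with the control vector against 0.23, 0.64 and 0.74 with HS3ST2 (1.08 ± 0.14). The scramblase gene PLSCR1 gave 0.25 ± 0.06, but near zero without its _s_at probe sets. Of the 20 genes on this side 7 (35%) were called higher, where 11.5% of all genes were, and 4 without HS3ST2 replicate 3.

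Over the rest of chromosome 3, 158 of 886 measured genes (17.8%) were called higher and 108 lower, with a median of 0.03. A running median of 11 neighbouring genes lay between 0.06 and 0.23 over the stretch. It stayed above zero well past both ends, from ACAD9 to MED12L, and reached 0.28 around COMMD2, beyond TRPC1. Elsewhere on the chromosome it ran from -0.33 to 0.31, highest around BOC. Of 876 windows there, 20 lay above the highest within the stretch and 310 above the lowest. The values from SLCO2A1 to TRPC1 were thus not the highest of chromosome 3.

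**Figure D3:**
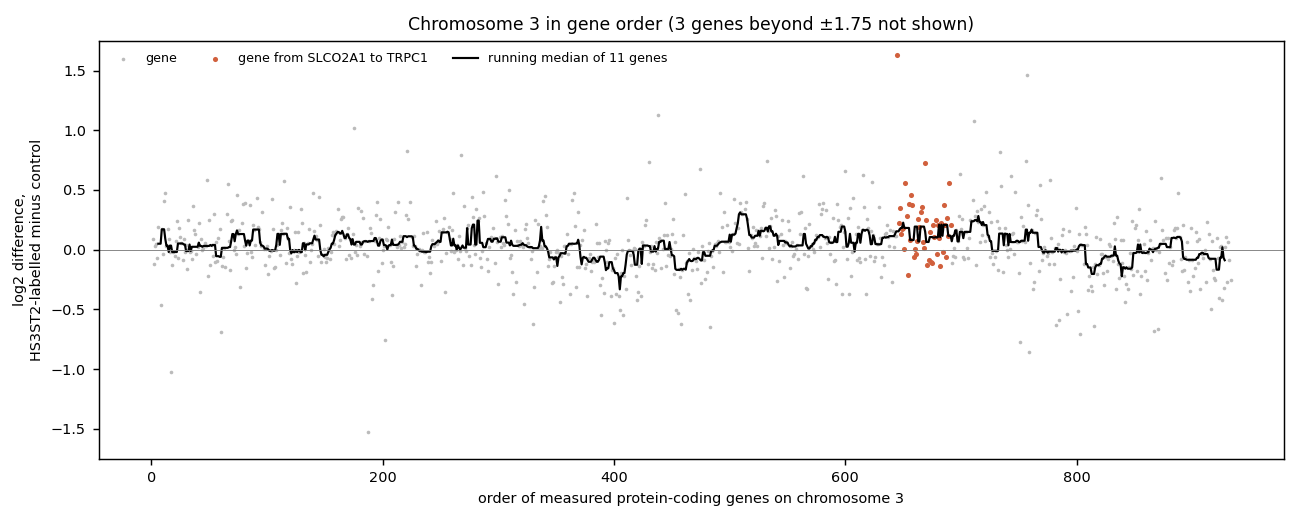
Each grey point is a gene of chromosome 3 in gene order, red points are the genes from SLCO2A1 to TRPC1, and the line is the running median of 11 genes of the log2 difference. The line stays between 0.06 and 0.23 over the red points and is higher in other places, up to 0.31.

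The arrays differed between the groups in another respect. The median of 6 control probe sets for ribosomal RNA ranged from -0.29 to -0.06 with the control vector and from 0.02 to 0.74 with HS3ST2, highest in HS3ST2 replicate 3. The median over all genes lay within 0.01 of zero in every array. Of markers of other cell types, 3 of 7 leukocyte genes were called higher and 1 lower, where 11.5% and 13% of all genes were. None of 8 fibroblast genes was called, and 2 of 8 luminal epithelial genes were called higher. The leukocyte differences ran from -0.59 to 1.11, so these genes did not move together. Leukocyte markers averaged -0.14 to -0.09 with the control vector and 0.11 to 0.17 with HS3ST2, luminal ones -0.13 to -0.01 and 0.04 to 0.12, and fibroblast ones -0.03 to 0.06 and -0.01 to 0.00. Whether any of these markers is at zero cannot be read from centred values, and their part in the members' differences was not tested.

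The sequence before the start of each gene is a property that the choice of members did not use. RefSeq's table (GRCh38.p14) gave the 250 bases before a start for 38 of the 43 members, and the 5′-most start was taken where a gene has several. The dinucleotide CG was counted, and the GC box GGGCGG was searched on both strands. Shown are 3 called members with 18 to 39 CG before the start and 2 uncalled members with little or no CG, each CG in capitals. They were picked on both call and CG count after their values were seen, so the contrast among them is no result. All are read 5′ to 3′ towards the gene's start.

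FAIM, chr3:138608521-138608770, plus strand: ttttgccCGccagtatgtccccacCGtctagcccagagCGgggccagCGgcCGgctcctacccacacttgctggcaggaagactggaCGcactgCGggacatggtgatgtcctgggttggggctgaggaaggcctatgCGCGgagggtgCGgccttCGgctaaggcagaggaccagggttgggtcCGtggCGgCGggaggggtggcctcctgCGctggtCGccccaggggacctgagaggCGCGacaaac
PPP2R3A, chr3:135965478-135965727, plus strand: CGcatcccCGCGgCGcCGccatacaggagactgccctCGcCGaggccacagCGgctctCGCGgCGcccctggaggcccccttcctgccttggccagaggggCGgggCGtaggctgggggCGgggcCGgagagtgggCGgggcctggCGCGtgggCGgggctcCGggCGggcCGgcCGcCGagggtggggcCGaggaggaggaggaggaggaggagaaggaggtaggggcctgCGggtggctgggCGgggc
ATP1B3, chr3:141876393-141876642, plus strand: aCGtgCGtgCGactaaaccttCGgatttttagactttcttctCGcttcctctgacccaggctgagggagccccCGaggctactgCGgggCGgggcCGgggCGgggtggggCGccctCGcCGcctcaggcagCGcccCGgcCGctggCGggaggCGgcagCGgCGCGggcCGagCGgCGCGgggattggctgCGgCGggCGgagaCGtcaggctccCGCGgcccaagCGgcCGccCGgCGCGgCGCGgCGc
GRK7, chr3:141763158-141763407, plus strand: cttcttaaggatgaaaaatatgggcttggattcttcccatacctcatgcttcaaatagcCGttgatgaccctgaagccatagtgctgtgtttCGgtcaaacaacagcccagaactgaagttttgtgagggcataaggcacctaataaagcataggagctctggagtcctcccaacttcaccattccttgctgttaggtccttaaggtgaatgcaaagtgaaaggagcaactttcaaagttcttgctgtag
A4GNT, chr3:138132391-138132640, minus strand: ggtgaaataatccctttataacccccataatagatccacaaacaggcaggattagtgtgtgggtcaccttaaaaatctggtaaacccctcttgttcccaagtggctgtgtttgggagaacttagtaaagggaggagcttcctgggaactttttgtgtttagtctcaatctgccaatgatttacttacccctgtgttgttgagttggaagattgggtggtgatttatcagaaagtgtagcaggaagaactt

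These windows hold 18 CG in FAIM (0.73 log2), 27 in PPP2R3A (0.56) and 39 in ATP1B3 (0.37), against 2 in GRK7 (-0.02) and 0 in A4GNT (0.07). The median over all 15382 measured genes with a window was 18, the count of FAIM. PPP2R3A has 6 GC boxes, ATP1B3 4, and the other 3 windows none. Over the 16 called members with a window the median was 25 CG, and over the 22 members not called it was 14.5. At least 10 CG were found in 15 of the 16 and in 14 of the 22, and in 68.9% of 15382 measured genes. Among all measured genes called higher it was 74.3%, and among those called lower 85.6%. The uncalled member SPSB4 has 31 CG, more than FAIM. The called member with fewer was AMOTL2, whose 5′-most start has 0. A GC box was found in 13 of 16, in 14 of 22 and in 56.1% of measured genes. Of all 35116 windows of that length in the table, 42.6% hold a GC box and 52.2% at least 10 CG. If the start with the most CG is used instead, the medians are 27 and 20.5. Over all measured genes the median was 19 among those called higher, 21 among those called lower and 16 among those not called, so more CG before the start was also found in genes called in either direction elsewhere. Matches are letters in these windows and not sites of binding.

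Genes of the same complex, family or pathway as a member, called partners here, were taken from 14 lists, of which 94 were measured. The lists also hold related genes, such as other PI3K and sodium pump subunits. A partner in this sense need not work together with the member. Of these partners 13 (13.8%) were called higher, where 11.5% of all genes were, and 25 (26.6%) lower, where 13% of all genes were. Their median was -0.07, against 0.01 over all genes, where calls were likewise more often lower than higher. Without control replicate 2 or HS3ST2 replicate 3, 16 were called lower. The lists are short, so the counts within them describe their genes and are no result about a list.

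Of the other subunits of the anaphase-promoting complex, 3 of 12 were called higher and 7 lower, among them ANAPC16 (0.37 ± 0.05) and ANAPC4 (-0.43 ± 0.06), beside 0.13 for ANAPC13. Partners of CEP63 in centriole duplication were all below zero, and 4 of 7 were called lower, with PLK4, the kinase that starts duplication, at -0.55 ± 0.07 and STIL at -0.35 ± 0.05. Of 12 further cohesin genes, 2 were called lower, PDS5A (-0.39 ± 0.05) and CDCA5 (-0.59 ± 0.07), and none higher, while STAG1 was at 0.39. The COPI coat had 3 of 8 genes called lower, with COPB1 at -0.26 ± 0.06 and COPA at -0.29 ± 0.07, beside 0.15 for COPB2. Among decapping factors and exonucleases 3 of 9 were called lower, with XRN2, the nuclear counterpart of XRN1, at -0.44 ± 0.05, and DCP1A at -0.29 ± 0.08.

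Of 4 measured PI3K subunits, PIK3CG (0.37 ± 0.06) and PIK3R3 (0.25 ± 0.06) were called higher along with PIK3CB. Of 8 measured Ras proteins and regulators, 3 were called higher and 2 lower, among them SHOC2, which forms a phosphatase complex with MRAS (0.51 ± 0.06), and RRAS2 (-0.37 ± 0.05). Of 5 genes of NAD synthesis, 3 were called higher, with NAMPT at 0.50 ± 0.05 and NMNAT2 at 0.42 ± 0.05, while NMNAT3 was at -0.11. For the linker that PXYLP1 acts on, 2 of 6 synthesis genes were called lower, where 13% of all genes were. They were FAM20B, the kinase that adds the phosphate that PXYLP1 removes (-0.39 ± 0.05), and the xylosyltransferase gene XYLT2 (-0.20 ± 0.05). Among the partners named so far, probe sets lay on both sides of zero for XYLT2 (-0.44 to 0.22) and NMNAT2 (-0.08 to 0.80). The same held for COPB1 (-0.48 to 0.03) and ANAPC16 (-0.01 to 0.83).

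The CTLH ligase had RANBP10 (0.20 ± 0.05) called higher and MAEA (-0.19 ± 0.06) called lower among 10 genes, the cullin 5 ligase had ELOC (-0.34 ± 0.06) called lower among 5, and propionate catabolism had MCEE (0.26 ± 0.05) called higher among 3. Neither the 3 other MSL genes nor the 2 measured genes of the sodium and potassium pump were called.

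**Figure D4:**
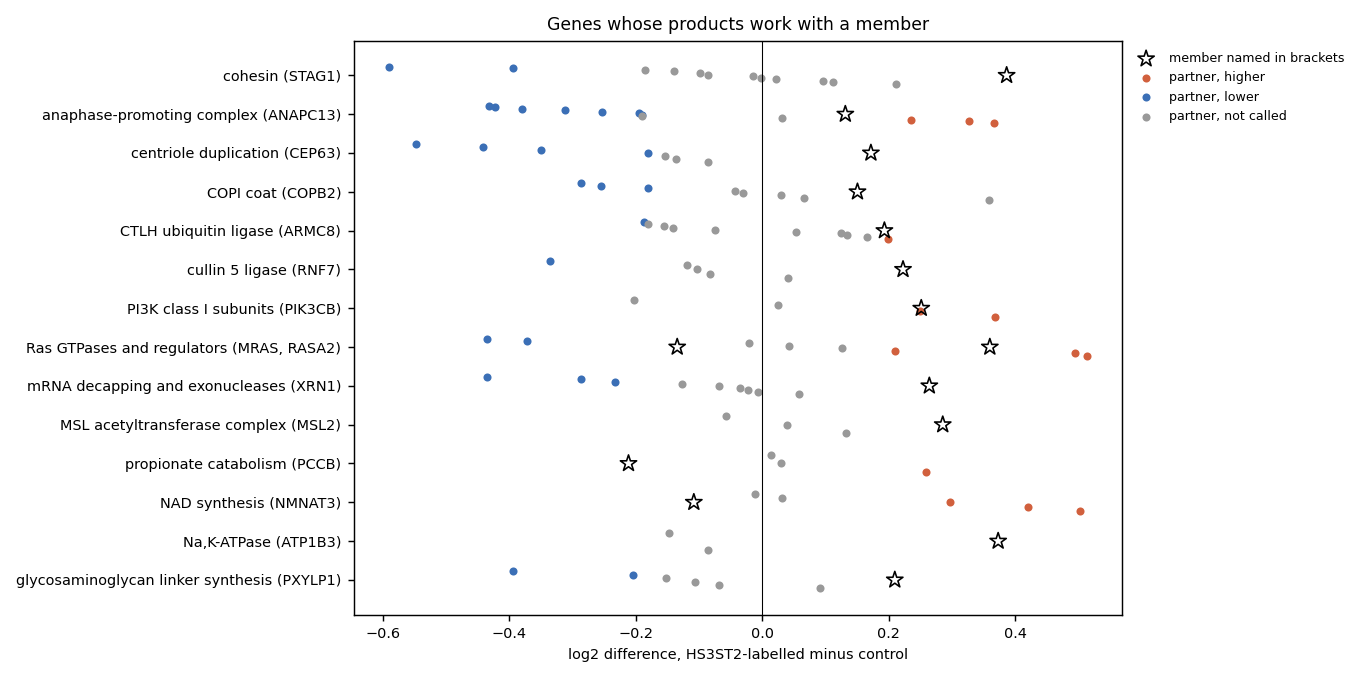
Filled points are log2 differences, HS3ST2-labelled minus control, of 94 partner genes in 14 lists, coloured by call, and open stars are the members named in brackets. The star of STAG1 (0.39) lies to the right of all its partners, and the points of centriole duplication lie to the left of zero, away from CEP63 (0.17).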

How the data were processed

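RNA of MDA-MB-231 cells was hybridised to 6 Affymetrix arrays. The deposited log2 values come from RMA per the submitters' processing notes, and per the file's values each probe set was then centred on its median over the arrays (0 within 1e-05). The software is not stated. The base 2 is that of RMA and is not stated. Precision is limited by there being 3 arrays per group.

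Of 54675 probe sets, 62 controls were set aside. GEO's platform annotation gave 1 symbol for 41091 of the rest, several for 1801 and none for 11721, and 41037 matched a RefSeq gene number. Probe sets with 1 symbol were averaged per gene. HS3ST2-labelled and control arrays were compared by limma 3.58.1 (lmFit, eBayes, R 4.3.3) over all 19775 genes and all 54613 probe sets, with Benjamini-Hochberg adjustment. In simulated arrays with the spread of these genes, 22% of planted differences of 0.3 log2 were called, 64% of 0.5 and 92% of 1. Far fewer genes were changed there than were called here, so these shares do not carry over directly.

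Gene order came from RefSeq (GRCh38.p14). No build is given for the array values. Flanking genes are the 20 nearest measured protein-coding genes on each side. Named with values in each array are the 12 called members with the largest difference and separate groups, both end genes and PXYLP1, with PCCB, IL20RB, NME9 and TM4SF18 added after their values were seen, and of each partner list up to 2 called genes with the smallest p. Members and lists were chosen with earlier results of these data known. Alternatives were a replicate block, each array left out, quantile normalization, median centring, array weights, robust eBayes, a threshold of 0.01, no _x_at or _s_at probe sets, and the probe set with the largest SD. Same-numbered arrays did not deviate together (correlations 0.12, 0.05 and -0.08 over genes), so the arrays were treated as unpaired.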

Additional observations from a re-analysis of the deposited data

Results flagged for a closer look

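The control probe sets for ribosomal RNA, which enter no comparison of genes, were higher in every HS3ST2-labelled array than in every control array. The median over 6 probe sets averaged 0.31 ± 0.38 log2 (SD, n = 3) in the HS3ST2-labelled arrays and -0.18 ± 0.12 in the control arrays.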

How the results depend on the processing

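Quantile normalization, median centring and robust eBayes kept all 18 called members. With the replicate block 14 of them were kept, RYK, ARMC8, RNF7 and TRPC1 were lost and NME9 was gained, 1 gene before SLCO2A1 and 0 intervening genes were called higher, but the replicate numbers share only a number. Array weights kept the 18, added IL20RB and called PCCB lower (1 member lower), and the probe set with the largest SD called PCCB and RASA2 lower (2 members), 1 gene before SLCO2A1 lower, and gave the members a median of 0.22. Quantile normalization called 2 member probe sets lower. At an adjusted p under 0.01, 10 members, 15 member probe sets, 1 gene before SLCO2A1, 2 after TRPC1 and 0 intervening genes were higher, 0 genes before SLCO2A1 and 13 partners were lower, with 1285 for all genes called higher and 1555 for all genes called lower. Without _x_at and _s_at probe sets RYK and FAIM were not measured, 12 of 41 members were called higher with a median of 0.15, and 19 of 78 member probe sets were higher and 0 lower. There 1 gene before SLCO2A1 and 4 of 16 after TRPC1 were higher, 1 before SLCO2A1 and 15 of 85 partners were lower, the count for all genes called lower was 1661 of 17098, and PLSCR1 changed sign (-9.22e-05). PCCB was then at 0.09. Beyond fewer probe sets or a stricter threshold, the cause was not tested.

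Over the 6 left-out arrays, 10 to 17 members were called higher and 0 to 1 lower, their median was 0.13 to 0.21, and 18 to 24 member probe sets were higher and 1 to 2 lower. Before SLCO2A1 1 to 2 genes were higher and 1 to 2 lower, after TRPC1 4 to 7 were higher, 0 to 1 intervening genes were higher, and 10 to 12 partners were higher and 16 to 20 lower.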

Other observations

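Besides the protein-coding genes, 5 non-coding genes within the stretch were measured by probe sets with 1 symbol, and limma called none of them. CLSTN2-AS1 gave 0.26 ± 0.09 log2 (SE, n = 3 per group) with separate groups, NCK1-DT, which lies beside NCK1, gave 0.11 ± 0.06, and COPB2-DT gave 0.08 ± 0.11. BPESC1 gave -0.12 ± 0.09 and LINC01210 -0.02 ± 0.07. NCK1 itself was at 0.46.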
